A study of Mus musculus with 40 samples.

Results

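The miR-148 and miR-152 family comprises the mouse (mmu) microRNAs mmu-miR-148a-3p, mmu-miR-148b-3p and mmu-miR-152-3p, given below without the prefix, which were taken from the count table by their names and made up 3 of its 1915 microRNAs. They were followed in total blood of ageing mice at 12, 13.5, 15 and 16.5 months, with 10 small RNA libraries per age and 40 in all. The study asked which circulating microRNAs change over the period in which memory declines in these animals. Per the study's methods, all animals were male C57B/6J mice that were housed singly and bled from the retro-orbital sinus under isoflurane at each age. A learning group was trained repeatedly in a water maze. In it, age, training and earlier bleeding rise together and cannot be told apart. No genotype or drug differed between the ages. A home cage group without behaviour tests was also kept. The study states that blood of untrained ageing mice was collected too, and that microRNAs possibly affected by training were controlled for. The labels do not say whether any library comes from the home cage group. The methods describe the order of blood sampling and behaviour at 12 months in different ways. The same animals were bled again at each age, whereas the 40 libraries were tested as independent samples.

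MicroRNAs are short RNAs cut from hairpin precursors, and 1 strand of the hairpin is usually retained in an Argonaute protein while the other is degraded. Bases 2 to 8 of the retained strand, the seed, pair with messenger RNAs, whose translation and stability then fall. Members of the family are known to repress DNA methyltransferase genes, miR-148a is abundant in liver and promotes plasma cell differentiation, and miR-148 and miR-152 dampen the activation of dendritic cells.

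The mature sequences (RefSeq, GRCm38.p6) are shown because the seed, in capitals, is shared by all 3 members, while the bases outside it allow their reads to be told apart.

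miR-148a-3p: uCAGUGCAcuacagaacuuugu
miR-148b-3p: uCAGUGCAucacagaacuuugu
miR-152-3p: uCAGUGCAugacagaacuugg

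Of the 1679 mature mouse microRNAs in this RefSeq table, 3 (0.179%) held the seed CAGUGCA at bases 2 to 8, and these were the 3 members. With positions counted from 1 at the 5′ end, miR-148a-3p and miR-148b-3p were identical at 20 of 22 bases and differed by C9U and U10C. From miR-148a-3p to miR-152-3p the substitutions were C9U, U10G and U20G (18 of 21 bases identical), and from miR-148b-3p to miR-152-3p they were C10G and U20G (19 of 21). The next lines show the same sequences with the differing positions in capitals.

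miR-148a-3p: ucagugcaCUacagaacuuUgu
miR-148b-3p: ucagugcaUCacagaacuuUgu
miR-152-3p: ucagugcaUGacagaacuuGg

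All differences lay outside the seed. Since reads were matched to mature sequences without mismatches, a full-length read of 1 member could not be entered under another, although a sequencing or synthesis error at these positions could move a read between them. The members come from 3 separate loci of GRCm38.p6. Mature miR-148a-3p lies at chr6:51269829-51269850 on the minus strand, in a hairpin that overlaps no other annotated gene and is 162760 bases from the nearest protein-coding gene, Nfe2l3. Mature miR-148b-3p lies at chr15:103285185-103285206 on the plus strand, within an intron of Copz1. Mature miR-152-3p lies at chr11:96850439-96850459 on the plus strand, within an intron of Copz2. Copz1 and Copz2 encode paralogous subunits of the COPI vesicle coat.

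Libraries held between 2469196 and 21386209 counts, with means of 14039100 at 12, 11387600 at 13.5, 6376770 at 15 and 8878520 at 16.5 months. These totals enter each miR-486 read 2 times, since its a and b forms have identical rows, so that they overstate depth. CPM values and shares of library counts for other microRNAs rest on these totals unless stated. They would be higher with miR-486 reads counted once. The microRNA miR-486-5p, which is made in red cells, took most of each library. Counts outside miR-486 made up 13.4% ± 2.70 (SD, n = 10) at 12 months, 13.1% ± 2.73 at 13.5 months, 7.93% ± 2.24 at 15 months and 12.2% ± 3.78 at 16.5 months, with miR-486 reads counted once. The 15-month libraries were thus both shallower and poorer in other microRNAs, and the part of this in the results at that age was not tested. Red cell microRNAs summed to at least 932730 CPM (counts scaled to a common library total) in all 40 libraries. Here both the sum and the total hold miR-486 reads 2 times, which makes this share higher than with such reads counted once. Of the 3 markers of other tissues, miR-122-5p of liver was at 0 in 35 libraries and had at most 3 counts, miR-124-3p of brain was at 0 in 38 libraries, and miR-375-3p of endocrine cells and gut had 2 to 86 counts (median 20.5) and was at 0 in none. The 3 together summed to 0.309 to 6.35 CPM. Of the liver and digestive tract list, miR-192-5p (median 5118 counts), miR-194-5p (213) and miR-215-5p (117) were present in all libraries. In 1 library, with column number 7 at 16.5 months, the microRNA profile stood apart from the rest (connectivity Z of -3.27), and it was also the shallowest. Its counts were 114 for miR-148a-3p and 92 for miR-148b-3p. The column headers at 13.5 and 15 months carry set letters, each with a number, that differ by age (A at 13.5 months, B and C at 15 months). Those at 12 and 16.5 months have another form, a single letter from A to J without a number. What these forms and letters stand for is not given in the sources used here. Header form, sets and age therefore cannot be told apart.

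The members differed widely in abundance. miR-148b-3p was the most abundant, with a mean of 0.0151% of counts (rank 39 of the table) and between 92 and 4866 counts per library. miR-148a-3p followed with 0.00915% (rank 49) and between 57 and 7252 counts. miR-152-3p had 136 counts in all 40 libraries together, with at most 18 in any library and none in 6. It failed the filter for testing (more than 100 reads in at least 20 libraries), which 105 microRNAs passed, and was tested among 345 microRNAs with more than 1 read in at least 20 libraries. miR-148a-3p and miR-148b-3p passed the main filter. Together the 3 members held between 207 and 11172 counts per library, and the share of miR-148a-3p in this sum was 41.7% ± 10.1 (SD, n = 10) at 12 months, 30.7% ± 5.78 at 13.5 months, 32.0% ± 6.00 at 15 months and 38.2% ± 6.45 at 16.5 months.

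miR-148a-3p was lower at 13.5 and at 16.5 months than at 12 months, about 2-fold in each case, and under TMM scaling it lay between these levels at 15 months. Levels are log2 CPM after scaling by trimmed mean of M-values (TMM), in which 1 unit is a doubling. At 12 months the lowest, median and highest of 10 libraries were 5.62, 6.57 and 8.30, with a mean of 6.71 ± 0.79 (SD). The highest of these, from column number 10, was the highest level of all 40 libraries. At 13.5 months the lowest, median and highest were 4.79, 5.52 and 6.78 (mean 5.71 ± 0.74). At 15 months they were 5.19, 6.27 and 7.67 (mean 6.35 ± 0.73), and at 16.5 months 5.10, 5.78 and 6.62 (mean 5.83 ± 0.47). The ranges of all ages overlapped, and the narrowest spread was that at 16.5 months. Before scaling, the median counts per library were 1701.5, 561, 465 and 524 in order of age, or 126, 56.8, 62.8 and 68.4 CPM of the library total.

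**Figure D1:**
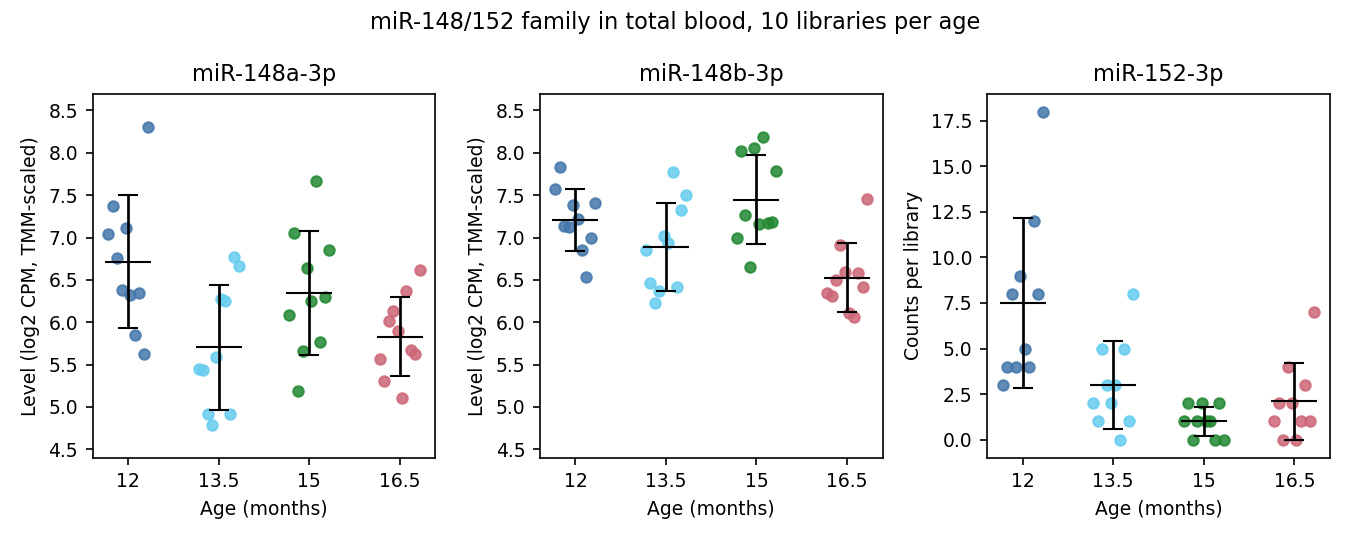
Level of miR-148a-3p and miR-148b-3p (log2 CPM after TMM scaling) and counts of miR-152-3p in each of 10 libraries per age, by age in months. Points are libraries and bars are mean and SD; miR-148a-3p had its highest library (8.30) at 12 months, miR-148b-3p had its lowest mean (6.53) at 16.5 months, and miR-152-3p reached at most 2 counts at 15 months.

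Over the 4 ages miR-148a-3p differed at an adjusted p of 0.00487 (edgeR quasi-likelihood F-test, Benjamini-Hochberg over 105 microRNAs), where 61% of the 105 passed the same threshold of 0.05 and it ranked 50. A difference over age was therefore the rule among these microRNAs. The study chose miR-148a-3p as 1 of 7 candidates on these samples, so its call here is not independent evidence. At 13.5 months it fell against 12 months by 1.05 on the log2 scale (SE 0.31, adjusted p = 0.00694), and 9 of 10 libraries lay below the 12-month mean; 29.5% of the 105 were called in this comparison, 14.3% as lower. At 16.5 months it fell by 1.03 (SE 0.31, adjusted p = 0.0146), with 10 of 10 libraries below the 12-month mean, where 23.8% were called, 13.3% as higher and 10.5% as lower. Without the 12-month library of column number 10, the difference at 16.5 months was -0.75 and the call was lost (adjusted p = 0.0566). The 15-month libraries gave -0.40 against 12 months (SE 0.30, adjusted p = 0.368), 0.64 against 13.5 months (SE 0.31, adjusted p = 0.076) and, for 16.5 against 15 months, -0.62 (SE 0.31, adjusted p = 0.122). The latter comparisons missed the threshold, and in these 23.8%, 47.6% and 28.6% of the 105 were called. The level at 16.5 months differed from that at 13.5 months by 0.02, with a 95% interval from -0.59 to 0.64, where 40% were called. With library totals the falls at 13.5 and 16.5 months missed the threshold (-1.09, adjusted p = 0.0668, and -1.24, adjusted p = 0.0697), 15 v 12 months was called (-1.10, adjusted p = 0.0145) and 15 v 13.5 months gave -0.01, so that the 15-month level was then not between the others. The value at 15 v 13.5 months passed in 5 other settings, with 0.72 to 0.92 (adjusted p from 0.00335 to 0.0477). In descending order the means ran 12, 15, 16.5 and 13.5 months, and no neighbours in this order passed the threshold. In blood, a lower level may reflect fewer cells of a type or less of the RNA per cell, and these cannot be told apart here.

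miR-148b-3p had its highest mean at 15 months and its lowest at 16.5 months, where it was below both 12 and 15 months. Its level at 12 months ran from 6.53 over a median of 7.18 to 7.83 (mean 7.21 ± 0.37, SD, n = 10). The lowest, median and highest were 6.23, 6.89 and 7.77 at 13.5 months (mean 6.89 ± 0.52). At 15 months these values were 6.65, 7.23 and 8.19 (mean 7.45 ± 0.52), and at 16.5 months they were 6.06, 6.46 and 7.46 (mean 6.53 ± 0.41). The groups overlapped at every pair of ages, and only the library of column number 10 exceeded a level of 7 at 16.5 months.

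The difference of miR-148b-3p over age had an adjusted p of 0.00105 (rank 42 of 105). The fall from 15 to 16.5 months was the clearest of its 6 comparisons, with -0.95 on the log2 scale (SE 0.21, edgeR adjusted p = 0.000605, rank 8), and 9 of 10 libraries at 16.5 months lay below the 15-month mean; 9.52% of the 105 were lower in this comparison. Against 12 months the 16.5-month level fell by 0.66 (SE 0.21, adjusted p = 0.0190, 9 of 10 libraries below the mean). From 13.5 to 15 months the level rose by 0.56 (SE 0.21, adjusted p = 0.0229, 9 of 10 above the mean), where 17.1% were higher. This rise lost its call without any 1 of the 15-month libraries of column numbers 2, 5 and 7 (adjusted p = 0.0523, 0.0540 and 0.0650). Scaled by library totals alone, which moved the median of the 105 microRNAs by -0.796 in this comparison, the value was -0.17 (adjusted p = 0.671), and under the same scaling the falls at 16.5 months missed the threshold. The comparisons of 13.5 and of 15 with 12 months gave -0.27 (SE 0.21, 95% interval -0.69 to 0.14, adjusted p = 0.363) and 0.29 (SE 0.21, adjusted p = 0.337), and 16.5 against 13.5 months gave -0.39 (SE 0.21, adjusted p = 0.130). In descending order the means ran 15, 12, 13.5 and 16.5 months, again with no neighbours past the threshold. At 15 months, the 3 libraries with headers of set B and the 7 of set C had similar means for this member (7.43 ± 0.53 and 7.46 ± 0.56) and 6.11 ± 0.93 and 6.45 ± 0.69 for miR-148a-3p.

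miR-152-3p was near the limit of detection at every age after 12 months. Its counts ranged from 3 to 18 at 12 months (median 6.5, sum 75), from 0 to 8 at 13.5 months (median 2.5, sum 30), from 0 to 2 at 15 months (median 1, sum 10) and from 0 to 7 at 16.5 months (median 1.5, sum 21). All 12-month libraries had at least 3 counts, but these were on average the most deeply sequenced. Relative to the summed totals, this was 0.534 CPM at 12 months (95% exact Poisson interval 0.420 to 0.670), 0.263 at 13.5 months (0.178 to 0.376), 0.157 at 15 months (0.0752 to 0.288) and 0.237 at 16.5 months (0.146 to 0.362). The intervals cover at most the counting error of the pooled reads, and amplified reads without molecular identifiers are not independent molecules. They leave out the spread between libraries, and 18 of the 75 counts at 12 months came from 1 library, that of column number 10. The later intervals overlapped each other and lay below that of 12 months, which is not a test of a difference between ages. In the 6 libraries with none, a count of 0 allowed up to 0.381 to 0.541 CPM (3 counts of the total), which is close to the 12-month level, so that absence was not detectable in a single library.

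Among the 345 microRNAs of the low filter, miR-152-3p differed over age at an adjusted p of 0.0297 (edgeR), where 39.1% were called and it ranked 115. This call was lost without the 12-month library of column number 5, 8 or 10 (adjusted p = 0.0509, 0.0510 and 0.101). It fell at 16.5 against 12 months by 1.08 (SE 0.37, adjusted p = 0.0443, 9 of 10 libraries below the 12-month mean), with 8.99% of the 345 lower. The call at 16.5 v 12 months was lost in 12 of the 40 fits that left out 1 library and in 7 of 12 other settings. The other comparisons with 12 months gave -0.93 at 13.5 months (SE 0.34, adjusted p = 0.0561) and -0.99 at 15 months (SE 0.45, adjusted p = 0.165). In order, 15.7% and 11.3% of the 345 were called in these, and 13.9% at 16.5 v 12 months. Between the later ages 27% (15 v 13.5 months), 21.4% (16.5 v 13.5 months) and 12.5% (16.5 v 15 months) were called, while the differences of miR-152-3p lay within 0.15 on the log2 scale, with standard errors of 0.42 to 0.54.

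**Figure D2:**
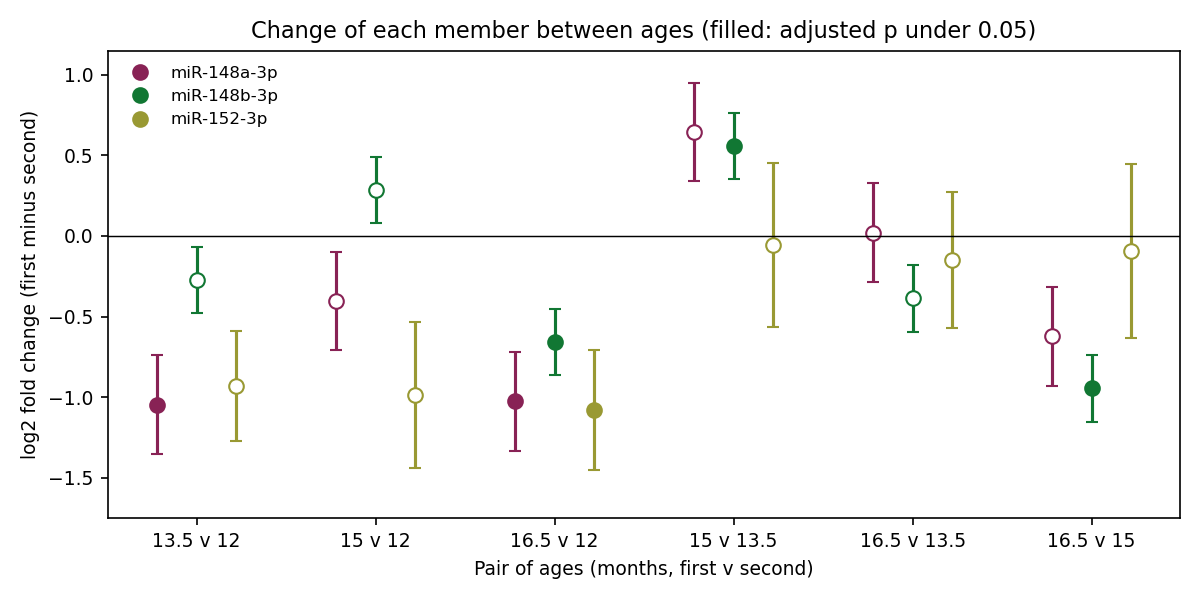
log2 fold change of each member for the 6 pairs of ages (first minus second), with bars of 1 standard error; filled points have an adjusted p under 0.05. Under TMM scaling all 3 members were lower at 16.5 v 12 months (-1.03, -0.66 and -1.08). At 15 v 13.5 and 16.5 v 15 months miR-148b-3p was the only called member under this scaling. With library totals no member was called at 16.5 v 12, 15 v 13.5 or 16.5 v 15 months. At 15 v 12 months miR-148a-3p (-1.10) and miR-152-3p (-1.65) were called under library totals. miR-152-3p comes from the fit to 345 microRNAs and the others from the fit to 105.

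To ask whether the members changed unequally, the log2 ratio of their counts was taken within each library, which does not depend on scaling between libraries. The ratio of miR-148a-3p to miR-148b-3p was -0.49 ± 0.61 (SD, n = 10) at 12 months, -1.19 ± 0.38 at 13.5 months, -1.10 ± 0.43 at 15 months and -0.70 ± 0.39 at 16.5 months. miR-148a-3p outnumbered miR-148b-3p in only 2 of 40 libraries, that of column number 10 at 12 months (ratio 0.89) and that of column number 7 at 16.5 months (0.31). No comparison passed the threshold after adjustment over 18 tests of the 3 ratios, and 4 of the 18 had an unadjusted permutation p under 0.05, all of this ratio. Each of these 4 compared 12 or 16.5 months with 13.5 or 15 months, and so ages whose column headers differ in form. Between ages of the same header form the differences were -0.21 (16.5 v 12 months, permutation p = 0.401) and 0.08 (15 v 13.5 months, permutation p = 0.648). Header form and age cannot be told apart in this ratio. The largest differences were -0.69 at 13.5 v 12 months (two-sided permutation p = 0.00516, adjusted 0.0637), -0.61 at 15 v 12 months (permutation p = 0.0111, adjusted 0.0666) and 0.49 at 16.5 v 13.5 months (permutation p = 0.00708, adjusted 0.0637). In each of these, 10 of 10 libraries of the later age lay on the same side of the mean of the earlier age. With medians in place of means, the first was -0.87 and passed (adjusted permutation p = 0.0331). The ratios to miR-152-3p had adjusted permutation p of 0.24 or more with 0.5 added to each count. At counts this low they depended on that number: with 5 added, miR-148a-3p to miR-152-3p at 15 v 12 months went from 0.20 to -1.26 (adjusted permutation p = 0.0517) and miR-148b-3p to miR-152-3p from 0.81 to -0.67 (adjusted 0.119), so that no direction can be given. A fall of miR-148a-3p without an equal change of miR-148b-3p at 13.5 months was thus not shown by this test.

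**Figure D3:**
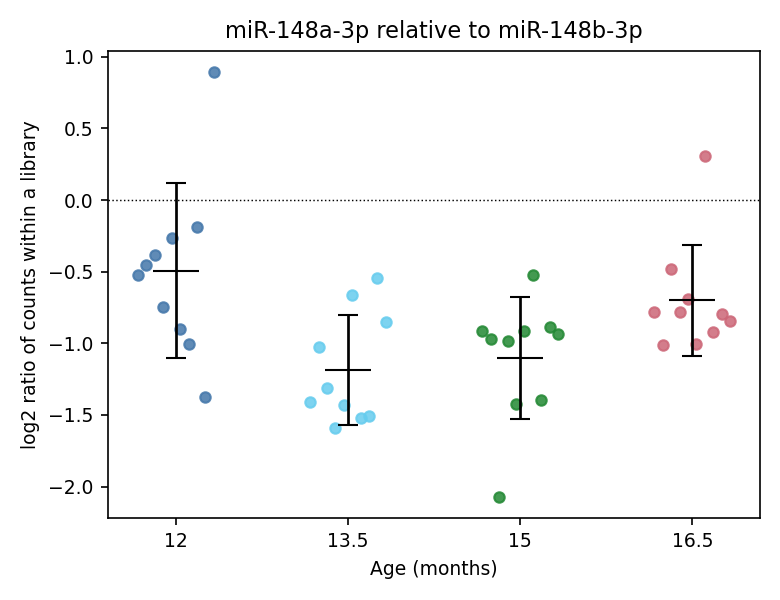
log2 ratio of miR-148a-3p to miR-148b-3p counts within each library, by age in months, with mean and SD. A ratio of 0 (dotted line) means equal counts; means were -0.49, -1.19, -1.10 and -0.70, and 2 of 40 libraries lay above 0.

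Within an age, miR-148a-3p and miR-148b-3p tended to be high in the same libraries. At 13.5 months Pearson's r was 0.87 (adjusted permutation p = 0.0217 over 12 tests) and Spearman's rho 0.855 (adjusted 0.0288). Leaving out the 2 libraries farthest from the median gave an r of 0.843. At 15 months r was 0.816 (adjusted permutation p = 0.0217), rho 0.745 (adjusted 0.0666) and r without the 2 libraries 0.903. At 12 months r was 0.661 (adjusted permutation p = 0.138), rho 0.794 (adjusted 0.0502) and r without the 2 libraries 0.815. At 16.5 months r was 0.621 (adjusted permutation p = 0.18), rho 0.527 (adjusted 0.298) and r without the 2 libraries 0.0529, so that under TMM scaling any relation at this age rested on those libraries. With library totals, r was 0.826 at 12 months (adjusted permutation p = 0.0152) and 0.909 at 16.5 months (adjusted 0.0028), and both passed. Both levels share the library and its scaling factor. Library depth and the share outside miR-486 were compared with both levels in 16 tests, most of which missed the threshold. The percentage of counts outside miR-486 passed with miR-148a-3p at 15 months (r 0.803) and with miR-148b-3p at 13.5 months (r 0.82). Both had an adjusted permutation p of 0.0205, with rho adjusted at 0.104 and 0.0568. The log2 library total passed with miR-148b-3p at 16.5 months (r 0.762, adjusted permutation p = 0.0189, rho adjusted at 0.0568). At 12, 13.5 and 15 months its r with miR-148b-3p was -0.686, -0.243 and -0.373. The r of the percentage outside miR-486 was positive at every age for both members. The part of these measures in the relation between the members was not tested. No pairing with miR-152-3p passed under either scaling, where the lowest adjusted permutation p was 0.283 with TMM and 0.106 with library totals (miR-148a-3p at 12 months, r 0.632).

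**Figure D4:**
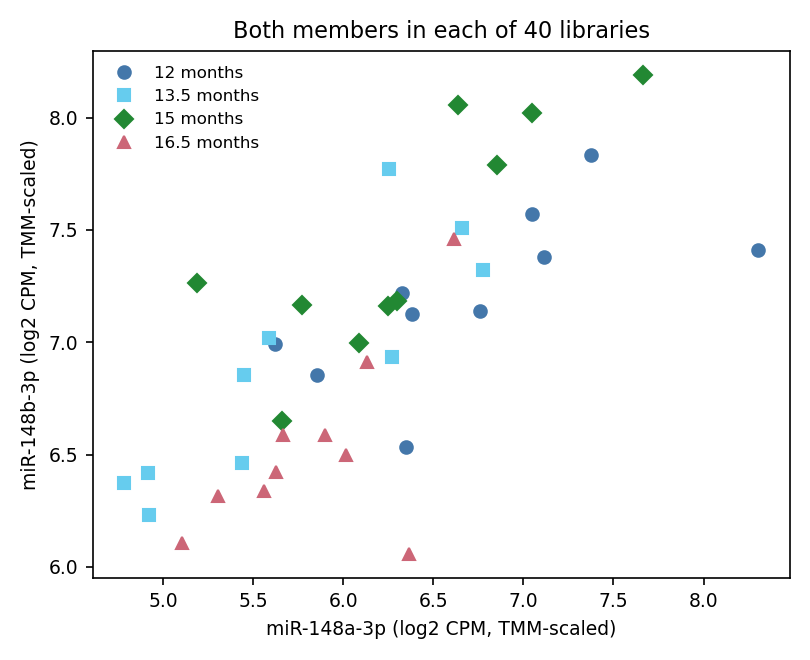
Level of miR-148b-3p against that of miR-148a-3p (both log2 CPM after TMM scaling) in each of 40 libraries, with a symbol per age. Within an age r was 0.661, 0.87, 0.816 and 0.621 in order of age, and the 15-month libraries tended to sit higher on the miR-148b-3p axis than the 16.5-month libraries.

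The strands opposite the members in their hairpins were also counted, and 2 of them are shown because miR-148a-5p and miR-148b-5p share a seed of their own, AAGUUCU (capitals).

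miR-148a-5p: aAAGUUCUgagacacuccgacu
miR-148b-5p: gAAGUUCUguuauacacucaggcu

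miR-148a-5p had 744 counts over the 40 libraries (0 to 122 per library), miR-148b-5p had 3021 (9 to 190) and miR-152-5p had 38 (0 to 5, with 21 libraries at 0). All failed the main filter. In the fit to 345 microRNAs neither tested strand passed over age (edgeR adjusted p = 0.343 for miR-148a-5p and 0.397 for miR-148b-5p) or between any pair of ages. At 16.5 v 15 months, where miR-148b-3p gave -0.93 in the same fit, miR-148b-5p gave 0.11 (SE 0.20, adjusted p = 0.762). At 16.5 v 12 months miR-148b-5p gave -0.07 (SE 0.19, adjusted p = 0.832). For miR-148a-5p the differences from 12 months were -0.50 at 13.5 months (SE 0.27, adjusted p = 0.21) and -0.26 at 16.5 months (SE 0.27, adjusted p = 0.562).

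The balance of the strands was compared between pairs of ages, with no test over all 4. Only the miR-148b difference at 16.5 v 15 months passed in every setting tried. The log2 ratio of miR-148b-3p to miR-148b-5p counts (0.5 added to each) was 4.36 ± 0.43 (SD, n = 10) at 12 months, 4.44 ± 0.79 at 13.5 months, 4.77 ± 0.36 at 15 months and 3.76 ± 0.37 at 16.5 months, or 28.0 counts of the 3p strand for each count of the 5p strand at 15 months and 14.0 at 16.5 months (means of the ratio). The libraries ran from 4.16 to 5.37 at 15 months and from 3.28 to 4.46 at 16.5 months, with a small overlap. The difference at 16.5 v 15 months was -1.004 (two-sided permutation p = 4e-05, adjusted over 12 tests 0.00048, 10 of 10 libraries below the 15-month mean). It passed in all 4 further settings, with values from -1.08 to -0.92. At 16.5 v 12 months the difference was -0.59 (permutation p = 0.00374, adjusted 0.0224) and at 16.5 v 13.5 months -0.68 (permutation p = 0.0175, adjusted 0.0419). With medians both were lost (adjusted permutation p = 0.0514 and 0.0923), and the latter also without the library that stood apart (adjusted 0.0614). For the miR-148a hairpin the log2 ratio was 5.94 ± 0.73, 5.23 ± 0.84, 6.01 ± 0.68 and 5.08 ± 0.68 in order of age. The difference was -0.86 at 16.5 v 12 months (permutation p = 0.0136, adjusted 0.0407) and -0.94 at 16.5 v 15 months (permutation p = 0.00742, adjusted 0.0297). Both calls were lost without the library that stood apart (adjusted permutation p = 0.0614 and 0.0546), and with 5 added to each count in place of 0.5 the comparison with 15 months gave -0.40 (adjusted 0.408). These ratios were tested after the levels of the members had been seen, and at 15 months miR-148a-5p had 0 to 16 counts and miR-148b-5p 9 to 69.

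**Figure D5:**
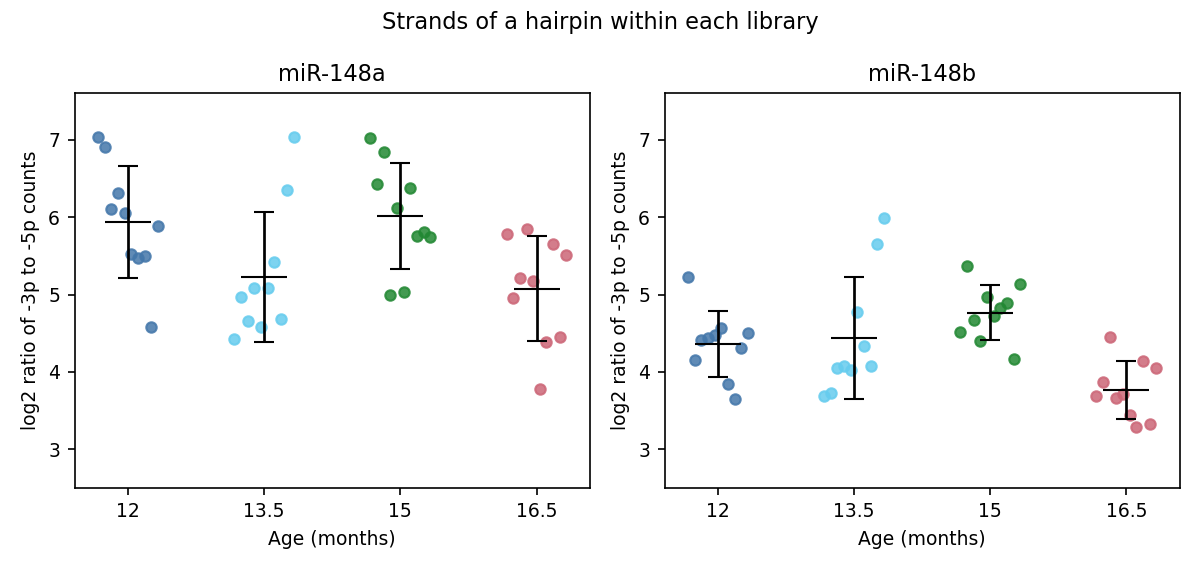
log2 ratio of 3p to 5p counts of the miR-148a and miR-148b hairpins within each library (0.5 added to each count), by age in months, with mean and SD. For miR-148b the 16.5-month libraries (3.28 to 4.46) sat below the 15-month mean of 4.77; for miR-148a the means were 5.94, 5.23, 6.01 and 5.08.

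Among the 103 other tested microRNAs, those most like miR-148a-3p over the 40 libraries were miR-19b-3p (Spearman's rho 0.724, and 0.729 after subtraction of the age means), miR-532-5p (0.713 and 0.719) and miR-21a-5p (0.682 and 0.707). The median rho of the 103 was -0.07, and miR-125a-5p lay at the other end with -0.695. For miR-148b-3p they were miR-532-5p (0.822 and 0.726), miR-30a-3p (0.768 and 0.633) and miR-140-3p (0.761 and 0.695), and the lowest was miR-130b-5p (-0.767). Thus miR-532-5p, a microRNA of an X-linked cluster, was among the 3 closest to both. For miR-152-3p the highest rho was 0.337 (miR-125b-5p), followed by miR-19b-3p (0.299, and 0.008 without the age means) and miR-182-5p (0.278), which at counts this low is not a likeness. These values are descriptions over libraries that share animals and scaling.

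Other microRNAs with the 7 seed bases shifted by 1 position are the nearest in sequence at the 5′ end. The 2 that could be tested, both of the miR-130 and miR-301 family, are shown with the shared bases in capitals.

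miR-130a-3p: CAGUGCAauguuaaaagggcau
miR-130b-3p: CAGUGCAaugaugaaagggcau

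Both rose at 13.5 v 12 months, where miR-148a-3p fell. miR-130a-3p rose by 0.56 (edgeR adjusted p = 3.43e-05) and miR-130b-3p by 0.72 (adjusted p = 9.10e-05). At 15 v 13.5 months, where miR-148b-3p rose under TMM scaling, they fell by 0.49 (adjusted p = 0.000217) and 0.97 (adjusted p = 8.86e-07). At 16.5 v 15 months, where miR-148b-3p fell, they rose by 0.33 (adjusted p = 0.0163) and 0.50 (adjusted p = 0.00868). With library totals both kept these directions, and miR-130a-3p lost its call at 13.5 v 12 months (0.55, adjusted p = 0.104). The contrast with the family was not kept throughout, since miR-148b-3p then gave -0.17 at 15 v 13.5 months, the same direction as theirs. Under that scaling the falls of miR-148a-3p at 13.5 v 12 months (-1.09) and of miR-148b-3p at 16.5 v 15 months (-0.375) missed the threshold. These comparisons share libraries, and the difference between the families was not tested. The other 2 listed members of that family, miR-301a-3p and miR-301b-3p, failed the filter.

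The lists of microRNAs typical of blood cells and of liver and gut give the setting of these changes, and their counts over age are to be read against the 61% of all 105 that were called. Of 3 tested lymphoid microRNAs all 3 differed over age, and at 16.5 v 12 months, where the family members were lower, 2 rose and none fell (13.3% of the 105 rose there). Among them miR-342-3p rose by 1.10 (edgeR adjusted p = 5.71e-05) and miR-150-5p, abundant in mature lymphocytes, by 0.86 (adjusted p = 0.0273). Their summed CPM of the library total, over all 4 listed, ran from 300.95 to 603 at 12 months, from 518 to 981 at 13.5 months, from 118 to 375 at 15 months and from 295 to 1180 at 16.5 months. Of 2 tested myeloid microRNAs neither passed over age, and miR-223-3p fell by 0.59 at 13.5 v 12 months (adjusted p = 0.0281). Of 6 tested red cell microRNAs 4 differed over age, in rows that include the identical miR-486a-5p and miR-486b-5p. At 13.5 v 12 months 2 of the 6 fell (14.3% of the 105 fell there), miR-144-5p by 1.60 (adjusted p = 3.01e-05) and miR-451a by 0.84 (adjusted p = 0.0495). Of 3 tested liver and digestive tract microRNAs 2 differed over age, and all 3 rose at 15 v 13.5 months under TMM scaling, as miR-148b-3p did, where miR-192-5p rose by 0.77 and miR-215-5p by 0.80 (both adjusted p = 0.000951). In that comparison 17.1% of the 105 rose and 32 of the 105 fell. The rise was not limited to this list: 3 of the 6 red cell rows rose and 1 fell. Of the 2 myeloid microRNAs 1 rose, and of the 3 lymphoid ones 1 fell and none rose. With library totals the 3 liver and digestive tract calls were lost too, and miR-192-5p, miR-215-5p and miR-194-5p gave 0.04, 0.05 and -0.18. Of the study's 7, all 7 differed over age, and at 16.5 v 12 months miR-148a-3p alone was called lower and miR-146a-5p alone higher (0.73, adjusted p = 0.0432). The list was chosen on these samples, so this count is not independent. Of the calls at 13.5 v 12 and 16.5 v 12 months named here, those of miR-144-5p and miR-342-3p were kept with library totals, and those of miR-148a-3p, miR-150-5p, miR-223-3p, miR-451a and miR-146a-5p were lost with their directions unchanged. The part of any of these microRNAs, or of the cells they mark, in the levels of the family was not tested.

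Each column header also carries 1 of 10 numbers that recur at every age, and no source used here states what they stand for. The library of number 10 lay above the mean of its age at 4 of 4 ages for both miR-148a-3p (by 0.96 on average on the log2 scale) and miR-148b-3p (by 0.52). Number 8 had the lowest averages, -0.47 for miR-148a-3p, with libraries below the mean at 4 ages, and -0.34 for miR-148b-3p, below at 3 ages. These numbers were picked for their values. With age in the model, differences between numbers had edgeR adjusted p of 0.557 for miR-148a-3p (unadjusted p = 0.0265), 0.801 for miR-148b-3p and 0.988 for miR-152-3p, and 0 of 105 microRNAs were called by edgeR (9 had an unadjusted p under 0.05).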

How the data were processed

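Total blood small RNA of mice was sequenced at 4 ages. The authors trimmed adapters, discarded short reads, mapped with miRDeep2 to mm10 and miRBase without mismatches, summed loci of the same mature microRNA and deposited raw counts; FastQC 0.11.5 is named in the submitters' processing notes. A deposited normalized table was not used. Columns were assigned to ages by their names, which do not hold the labels' replicate numbers.

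Here, counts of microRNAs with more than 100 reads in 50% of libraries were fitted over age with edgeR 4.0.16 in R 4.3.3 (TMM, glmQLFit, glmQLFTest, Benjamini-Hochberg within a comparison, threshold 0.05), after a check on simulated data. Levels used a prior count of 2. Ratios (0.5 added) and correlations used 100000 resamples in scipy 1.17.1. Replicates were compared within each age, and none agreed within sampling noise. P-values measure the spread between the libraries, which the labels do not tie to single animals.

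Named were the 3 members, their 5p strands, the 3 microRNAs most like each member, and listed markers; within lists, examples were picked by value. Members and lists were chosen with earlier results of these data known. Alternatives included DESeq2 1.42.0, limma 3.58.1 voom, factors of unwanted variation, other scalings and filters, and leaving out libraries.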

Additional observations from a re-analysis of the deposited data

Results flagged for a closer look

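In 32 sets of 10 libraries (levels of the members, ratios between them and ratios between strands at each age) the extreme library was compared with its neighbour by Dixon's test (limit 0.466), which chance passes in about 1 set in 20, and 2 sets passed. At 12 months the highest log2 ratio of miR-148a-3p to miR-148b-3p was 0.894, from column number 10, against -0.186 for the next library (gap over range 0.476). This library also held the highest level of miR-148a-3p. At 16.5 months the highest ratio was 0.308, from column number 7, against -0.479 for the next library (0.597). This was the shallowest of all libraries and the one whose profile stood apart.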

How the results depend on the processing

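Ages are in months, and values are log2 differences with adjusted p in brackets, and for tests over age the adjusted p alone; the cause of a change was not tested. Scaling by library totals moved the median of the 105 microRNAs by -0.781 (15 v 12), -0.221 (16.5 v 12), -0.796 (15 v 13.5), -0.185 (16.5 v 13.5) and 0.596 (16.5 v 15). Under it miR-148a-3p at 13.5 v 12 was -1.09 (0.0668) and at 16.5 v 12 -1.24 (0.0697), both lost, and at 15 v 12 -1.10 (0.0145), gained. For miR-148b-3p the test over age (0.144), 16.5 v 12 at -0.819 (0.179) and 16.5 v 15 at -0.375 (0.323) were lost, and 15 v 13.5 turned to -0.171 (0.671). For miR-152-3p 15 v 12 was gained at -1.65 (0.00336) and 16.5 v 12 lost at -1.15 (0.0753).

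The rise of miR-148a-3p at 15 v 13.5 passed with median-ratio factors (0.737, 0.0413), without the miR-486 rows (0.720, 0.0477), with DESeq2 (0.735, 0.0287), with limma voom and quality weights (0.923, 0.00335) and, in a setting added after seeing the data, without the 3 libraries of set B (0.807, 0.0469). With 2 factors of unwanted variation miR-148a-3p gained 15 v 12 (-0.786, 0.000913) and 16.5 v 13.5 (0.409, 0.0404), and in a fit to only the ages compared it gained 16.5 v 15 (-0.683, 0.0426). With age as a line the tests over age were lost for miR-148a-3p (0.0693) and miR-148b-3p (0.262). miR-148b-3p gained 15 v 12 (0.349, 0.0216) and 16.5 v 13.5 (-0.369, 0.00947) with 1 factor and 13.5 v 12 with voom (-0.468, 0.0213), and lost 15 v 13.5 without a filter (0.523, 0.149).

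miR-152-3p gained 13.5 v 12 with DESeq2 (-0.998, 0.0482) and 1 factor (-0.986, 0.0351). Its call at 16.5 v 12 was lost with DESeq2 (-1.11, 0.0532), with 2 factors (-0.930, 0.0589), without a filter (-1.09, 0.134; over age 0.0786), without the miR-486 rows (-1.07, adjusted p just above the threshold) and without set B (-1.07, 0.0587).

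A block on the labels' replicate numbers, which the columns lack, could not be fitted. With the column number as a replicate block, added after seeing the data, miR-152-3p was lost over age (0.0508) and at 16.5 v 12 (-1.14, 0.0610), the paired strand ratio of miR-148b at 16.5 v 13.5 was lost (-0.677, 0.134), and no other call of the members or ratios changed. Libraries of the same number did not deviate together: the mean correlation of the 60 pairs was -0.00512, 24 of 60 exceeded 0.1, and 8 correlated best with their own number.

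Without 1 library, miR-148a-3p ran from -1.13 to -0.753 at 16.5 v 12 (1 of 40 fits lost) and from 0.434 to 0.859 at 15 v 13.5 (5 gained). miR-148b-3p ran from 0.463 to 0.750 at 15 v 13.5 (3 lost). miR-152-3p ran from 0.0182 to 0.101 over age (3 lost, without the 12-month libraries of column numbers 5, 8 and 10), from -1.04 to -0.782 at 13.5 v 12 (4 gained) and from -1.31 to -0.930 at 16.5 v 12 (12 lost). The other calls of miR-148a-3p and miR-148b-3p were kept in all 40 fits.

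With medians, the ratio of miR-148a-3p to miR-148b-3p at 13.5 v 12 was -0.869 (0.0331), and the strand ratios lost 16.5 v 15 for miR-148a (-0.766, 0.0527) and 16.5 v 12 (-0.720, 0.0514) and 16.5 v 13.5 (-0.377, 0.0923) for miR-148b. With 5 added to each count the strand ratio of miR-148a at 16.5 v 15 was -0.401 (0.408). Without the library that stood apart the strand ratios lost 16.5 v 12 (-0.783, 0.0614) and 16.5 v 15 (-0.859, 0.0546) for miR-148a and 16.5 v 13.5 (-0.624, 0.0614) for miR-148b.

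Counts of called microRNAs out of 105 moved by over 1.5 times with library totals at 13.5 v 12 (12, from 31), 15 v 12 (84, from 25), 16.5 v 12 (5, from 25) and 16.5 v 15 (66, from 30). The low filter (345 tested) called 135 over age (from 64) and 39 to 93 in the 5 comparisons it moved as much (from 25 to 50), no filter 113 over age, 1 factor 44 to 54 in 3 comparisons (from 25 to 31), 2 factors 39 to 64 in 3 (from 25 to 42), and age as a line 21 (from 64). Higher against lower calls were 16 and 15, 8 and 17, 14 and 11, 18 and 32, 19 and 23, and 20 and 10 for the 6 comparisons, in the order plotted. With library totals they were 9 and 3, 2 and 82, 2 and 3, 2 and 71, 4 and 24, and 64 and 2. Median-ratio factors gave 9 and 12 at 15 v 12, 27 and 30 at 15 v 13.5 and 19 and 15 at 16.5 v 15, and leaving out the miR-486 rows 9 and 10 at 15 v 12 and 16 and 14 at 16.5 v 15.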
